A study of Homo sapiens with 4 samples.

Results

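Long noncoding RNAs are transcripts without a recognised reading frame, and 125 of them carried 136 peaks in the table of differential ac4C peaks between control and NAT10-depleted FaDu cells. The whole table holds 2807 peaks in 2483 genes, of which 2657 peaks in 2344 genes are protein-coding. The noncoding genes were chosen by their biotype in that table (antisense_RNA, lincRNA, processed_transcript, sense_intronic, sense_overlapping, 3prime_overlapping_ncRNA or TEC), so each of them had already been selected on a measured difference between the conditions. All values that compare the conditions are therefore given as descriptions, without a test. Antisense RNAs made up 76 peaks in 73 genes. Processed transcripts, which are noncoding transcripts placed in no narrower class, made up 26 peaks in 22 genes. Intergenic lincRNAs gave 17 peaks in 15 genes, and TEC loci, which await experimental checking, gave 9 peaks in 8 genes. Transcripts overlapping a gene on its own strand gave 6 peaks in 5 genes. The sense-intronic AL691482.3 and AL137127.1, which overlaps the 3′ end of a gene, gave 1 peak each.

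FaDu is a squamous carcinoma line of the hypopharynx. Cells expressing a control short hairpin RNA (shNC) were compared with cells expressing a hairpin against NAT10 (shNAT10), in acRIP-seq, where RNA fragments are pulled down with an antibody to ac4C and sequenced beside the input RNA. Each condition had 1 IP and 1 input library, so no spread between replicates can be given. A peak's fold enrichment is the ratio of IP over input that the authors deposited, and it carries no read depth, so the counting error of a single value is unknown here. The shNC list held 6403 peaks and the shNAT10 list 6417, each with a median fold enrichment of 12.4. NAT10 itself had 1 peak in each list, of 6.91 in shNC and 12 in shNAT10. This is not a measure of its RNA level and does not check the knockdown. Of 11 genes typical of epithelium, 6 in shNC and 5 in shNAT10 had a peak within their RefSeq span, among them TP63 and KRT8 in both. Of 5 genes typical of immune, endothelial and connective tissue cells, only COL1A1 had a peak, in shNC.

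NAT10 is the acetyltransferase that writes N4-acetylcytidine (ac4C) on cytidines of RNA, with ribosomal and transfer RNAs as its classical substrates. Long noncoding RNAs act in several ways. Some scaffold nuclear bodies or bind proteins, some are hosts whose introns or exons are cut into small nucleolar RNAs (snoRNAs) or microRNAs, and many antisense transcripts lie across a coding gene. Enrichment by an ac4C antibody shows that a fragment was pulled down, and does not place the acetylated base.

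The C-rich motif listed for each peak is written CNNCNNCNNCNN, a stretch of 12 bases in which a cytidine recurs with any 2 bases after it. The stretches below are printed because the peaks they come from are described later and because they show how such sites sit in a peak. They were read from RefSeq promoter windows (GRCh38.p14), which is the only source of bases used here, so they are the ends of peaks that reach into such a window, 5′ to 3′ on the strand of the noncoding RNA. Capitals mark the listed motif sites.
ADIRF-AS1, chr10:86970174-86970385, minus strand: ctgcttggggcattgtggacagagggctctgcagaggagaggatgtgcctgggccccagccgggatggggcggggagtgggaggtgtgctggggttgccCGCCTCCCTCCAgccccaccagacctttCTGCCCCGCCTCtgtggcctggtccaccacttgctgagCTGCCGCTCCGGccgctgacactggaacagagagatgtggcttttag
AC024267.6, chr17:28897826-28897983, plus strand: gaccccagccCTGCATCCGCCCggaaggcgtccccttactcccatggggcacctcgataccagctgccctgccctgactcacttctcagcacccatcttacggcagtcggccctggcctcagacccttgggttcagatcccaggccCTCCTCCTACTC
ZFAS1, chr20:49278656-49278691, plus strand: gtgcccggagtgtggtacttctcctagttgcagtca
SNHG19, chr16:2155309-2155358, minus strand: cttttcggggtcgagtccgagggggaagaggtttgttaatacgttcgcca
UCA1, chr19:15834917-15835018, plus strand: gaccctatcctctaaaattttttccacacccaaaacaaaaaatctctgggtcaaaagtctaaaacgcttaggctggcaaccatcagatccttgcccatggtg
The ADIRF-AS1 stretch of 212 nt holds 3 listed sites. Counted with overlaps, the motif's letters match 7 times in it, and each further match overlaps a listed site. The AC024267.6 stretch of 158 nt holds 2 sites and has 44.3% cytidine. The first 36 nt of ZFAS1, 50 nt of SNHG19 and 102 nt of the UCA1 peak hold none, at 25.0%, 18.0% and 28.4% cytidine. The motif is common, since 74.9% of 35116 RefSeq promoter windows of 300 nt have it on the gene's strand.

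Mature microRNAs of 3 host genes described below are shown because their place relative to the peak differs. They come from RefSeq, with the seed (bases 2 to 8) in capitals.
hsa-miR-675-5p in H19: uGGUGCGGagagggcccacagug
hsa-miR-675-3p in H19: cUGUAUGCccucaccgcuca
hsa-miR-195-5p beside MIR497HG: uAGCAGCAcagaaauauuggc
hsa-miR-497-5p beside MIR497HG: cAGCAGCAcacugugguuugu
hsa-miR-193b-3p beside MIR193BHG: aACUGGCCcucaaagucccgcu
hsa-miR-365a-3p beside MIR193BHG: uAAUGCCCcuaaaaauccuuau
miR-195-5p and miR-497-5p share their seed. The miR-675 hairpin (chr11:1996759-1996831, minus strand) lay inside an exonic block of the H19 peak, and the other hairpins lay outside the peak of their host.

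Most of these noncoding peaks coincided with a peak of another gene, and this bears on every value below. A peak of another gene on the opposite strand shared exonic bases with 84 of 136 noncoding peaks (61.8%), against 8.84% of protein-coding ones, a difference of 52.9 percentage points (95% Newcombe interval 44.5 to 60.7). For antisense RNAs it was 66 of 76 (86.8%), and for lincRNAs 3 of 17 (17.6%). On the same strand, 26 peaks (19.1%) met a peak of another gene, against 6.32%, a difference of 12.8 points (6.99 to 20.3). Processed transcripts had the most of these, with 14 of 26. Only 34 of the 136 peaks, in 32 genes, met no peak of another gene. The antisense and overlapping biotypes are defined by their place at another gene. Much of these differences therefore follows from the choice of genes and is no finding about them. The intervals treat peaks as independent and cover counting error over peaks only.

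Where both strands coincided, their values were often the same number. Among opposite-strand pairs that covered at least 50% of each other, the noncoding and the partner peak had identical fold enrichments in 21 of 60 pairs in shNC and 9 of 49 in shNAT10. They were within 1.5-fold in 53 and 31 pairs. Pairs without a noncoding member here were identical in 85 of 182 and 96 of 179. AC019349.1, antisense to the keratin gene KRT13, had 168 in shNC and 78.7 in shNAT10, and KRT13 had exactly these values. Neither the strand marking of the kit nor the strand setting of the counting was given in the sources used here, so the enrichment of such a noncoding peak cannot be told apart from that of its partner. Summary counts and shares are given over all 136 peaks and over the 34 that met no other gene's peak.

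**Figure D1:**
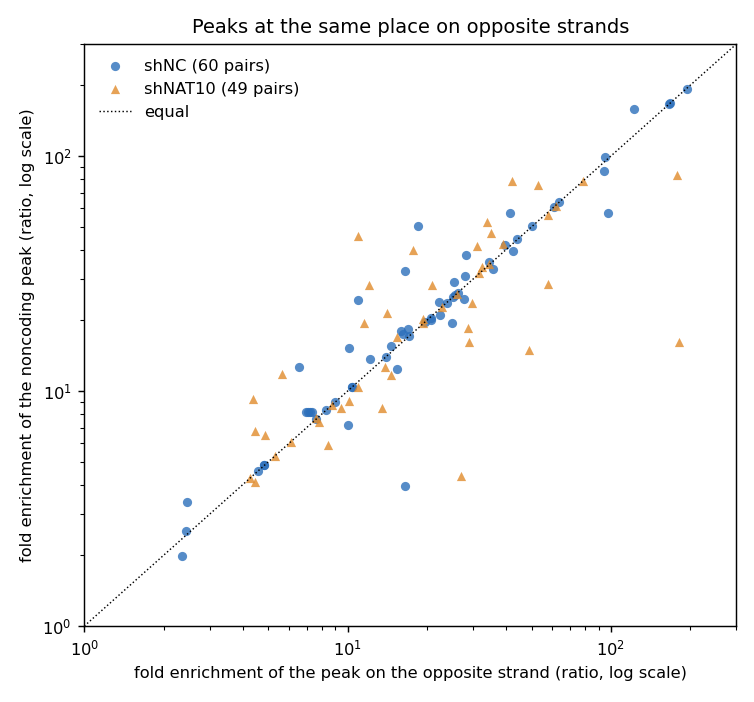
Fold enrichment (IP over input, log scales) of a noncoding peak against the peak of another gene at the same place on the opposite strand, for 60 pairs in shNC (circles) and 49 in shNAT10 (triangles). Points on the dotted line have equal values, and most shNC pairs lie on or near it.

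The question behind the comparison of the lists was which noncoding transcripts were enriched by the ac4C antibody with and without NAT10 depletion. Of the 136 peaks, 45 (33.1%) overlapped a peak of the same gene in the shNC list only, 55 (40.4%) in both lists and 36 (26.5%) in the shNAT10 list only. Over all 2807 differential peaks, matched by place and strand whatever the gene, these shares were 32.2% for shNC only, 40.4% for both and 27.3% for shNAT10 only. The noncoding peaks were thus spread over the lists much as the whole table was. Without the peaks at another gene, 11 were in shNC only, 9 in both and 14 in shNAT10 only. Among lincRNAs 9 peaks were in shNC only, 3 in both and 5 in shNAT10 only. Among processed transcripts these numbers were 5, 15 and 6. Antisense RNAs had 27 in shNC only, 30 in both and 19 in shNAT10 only. A peak missing from a list had no value there, so no fold is given for it.

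**Figure D2:**
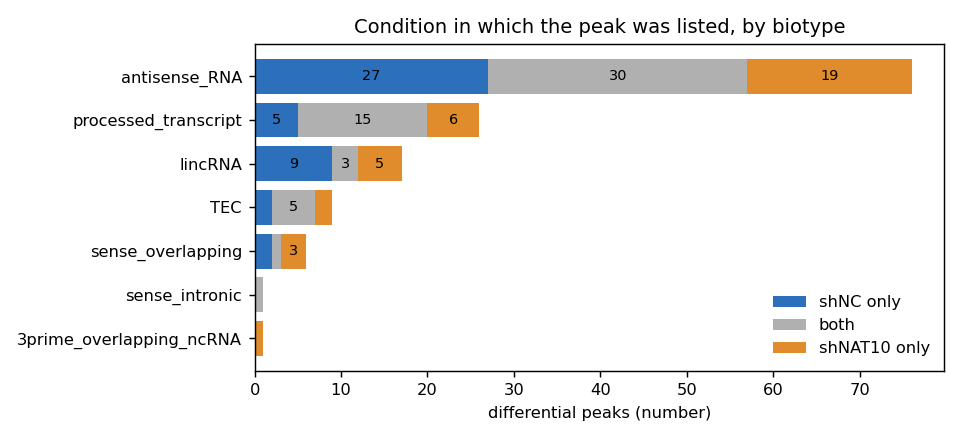
Number of differential peaks of each noncoding biotype listed in shNC only, in both conditions or in shNAT10 only. Antisense RNAs hold 76 of the 136 peaks.

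Looked up by Ensembl identifier, 33 genes (26.4%) had peaks in shNC only, 69 (55.2%) in both and 23 (18.4%) in shNAT10 only, and all 125 were found in at least 1 list. Among protein-coding genes of the table these shares were 21.3%, 59.2% and 19.5%. Over the 30 noncoding genes whose differential peaks all met no other gene's peak, 8 were in shNC only, 14 in both and 8 in shNAT10 only. All 125 noncoding genes together held 130 of the 6403 shNC peaks (2.03%) and 121 of the 6417 shNAT10 peaks (1.89%). Of these, 27 in shNC and 24 in shNAT10 lay outside a differential peak, so a differential peak was often not the gene's sole enriched stretch.

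For the 55 peaks in both lists, the log2 ratio of fold enrichment, shNAT10 over shNC, ran from -5.18 to 3.59 with a median of -0.51 (interquartile range -1.63 to 0.67). It was above 0 for 23 peaks and below 0 for 32. Each ratio sets the peak called in one list against that called in the other, and these need not cover the same bases. The median was -0.28 for protein-coding differential peaks, -0.29 for all differential peaks and -0.05 over all 3288 peaks that the lists shared. At least 2-fold higher in shNAT10 were 12 of the 55, beside 28.9% of all differential peaks in both lists, and at least 2-fold lower were 23, beside 33.9%. The rule used this same contrast, so nothing is read from these shares. The median had the other sign without the peaks at another gene, and the cause of this was not tested. Over the 9 peaks that met none it was 0.30 (interquartile range -2.99 to 0.94), with 5 above and 4 below 0. Of these 9, 2 were at least 2-fold higher in shNAT10 and 4 at least 2-fold lower. Over 20 peaks that overlapped no other gene's differential peak the median was 0.38.

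**Figure D3:**
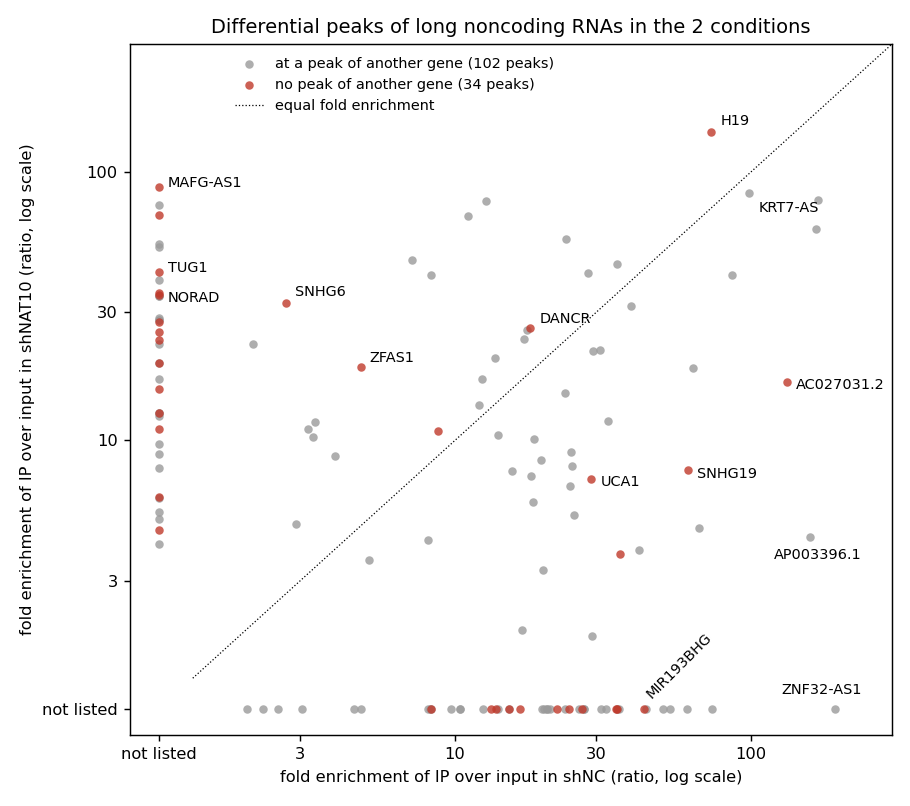
Fold enrichment (IP over input, log scales) of each of the 136 noncoding differential peaks in shNC and shNAT10, with peaks absent from a list placed on that list's margin. Red points are the 34 peaks that met no peak of another gene, and points above the dotted line were more enriched in shNAT10.

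The snoRNA host genes, whose spliced exons form a noncoding RNA while the introns yield snoRNAs, had 8 peaks in 7 genes. None of these was in shNC only, 4 were in both lists and 4 in shNAT10 only, beside 32.2%, 40.4% and 27.3% of all differential peaks. With 8 peaks, this is a description of these peaks and not a trait of host genes. SNHG6 (chr8:66921981-66922404, minus strand) had 2.69 in shNC and 32.4 in shNAT10, the highest log2 ratio of the 55, at 3.59. The SNHG6 peak covered 149 exonic nt in shNC and 268 in shNAT10, so the stretches compared were not the same. ZFAS1 (chr20:49278656-49280656), whose 5′ end is printed above, had 4.8 in shNC and 18.7 in shNAT10, a log2 ratio of 1.96. A further ZFAS1 stretch that was not differential had 22.2 and 50.5, again higher in shNAT10. DANCR (chr4:52713496-52714119) had 18.0 over 268 nt in shNC and 26.2 over 624 nt in shNAT10, a log2 ratio of 0.54. SNHG19 (chr16:2154825-2155358) went the other way, with 61.5 in shNC and 7.73 in shNAT10, a log2 ratio of -2.99. Its differential peak includes the 5′ end printed above.

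The other host peaks were listed in shNAT10 only. SNHG8 had 27.5 there. SNHG16 had 15.6 and 12.7 at differential peaks 388 nt apart, and a further stretch, not differential, had 24.0 in shNC and 33.8 in shNAT10. GAS5, a host RNA whose transcript is also known to bind the glucocorticoid receptor, had a differential peak of 4.65, while its main stretch next to it was not differential and had 109 in both conditions. Of the 8 host peaks, 7 met no peak of another gene, the exception being the second SNHG16 peak. LRRC75A-AS1, now named SNHG29 in RefSeq and listed here among the antisense symbols, had 17.5 in shNC and 25.8 in shNAT10, beside an opposite-strand peak of 16.3 and 26.1.

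H19, the imprinted RNA expressed from the maternal allele, had the longest of all the noncoding peaks (chr11:1995193-1997742, minus strand, 2409 exonic nt in 3 blocks) and the most motif sites, 21. The shNC list broke this stretch into 3 peaks of 73.6, 8.98 and 10.4, and the shNAT10 list into 4 peaks of 141, 27.0, 9.3 and 13.5. Each of the 3 shNC peaks was matched by a more enriched shNAT10 peak. The log2 ratio of the strongest was 0.94. The miR-675 hairpin lay under the peaks of 8.98 in shNC and 27.0 in shNAT10.

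Of the microRNA hosts other than H19 and DANCR, MIR193BHG and MIR497HG had their differential peak in shNC only. MIR193BHG (chr16:14329899-14330289) had 43.5 in shNC and no peak in shNAT10, at 20528 nt from the miR-365a hairpin and 25850 nt from that of miR-193b. MIR497HG (chr17:7016601-7016811, minus strand) had 44.2 at its differential peak, with opposite-strand peaks of 44.2 in shNC and 29.0 in shNAT10. Other MIR497HG stretches stayed listed in both conditions, with 48.7 in shNC and 90.4 in shNAT10 next to it, and 57.3 and 16.2 at the following one. That following stretch faced opposite-strand peaks of RNASEK-C17orf49 (41.3 in shNC and 29.0 in shNAT10) and C17orf49 (97.4 and 181). So the gene was listed in both conditions. Its values there differed from those of these partners, most in shNAT10, where MIR497HG was lower than in shNC and C17orf49 higher. With the strand setting unknown, the reads behind these values cannot be assigned to a strand. The miR-195 hairpin lay 804 nt and miR-497 1100 nt from the differential peak.

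NEAT1, the scaffold of paraspeckles, had a differential peak listed in shNAT10 only (chr11:65440416-65440596, 11.0) and another, 119 nt further 3′, listed in shNC only (chr11:65440716-65440926, 13.2). The values were close, while the place differed. NORAD, a cytoplasmic RNA that binds Pumilio proteins, had the same arrangement: 35.2 at chr20:36045652-36045862 in shNC only and 35.5 at chr20:36045922-36046102 in shNAT10 only, 59 nt apart. These were 2 of the 10 genes with several differential peaks, and the 2 in which a peak listed in shNC only stood beside a peak listed in shNAT10 only. No other gene had a peak at any of the 4 places.

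UCA1, described first in bladder carcinoma, had both its peaks in both lists. The first (chr19:15834917-15835395) had 23.6 in shNC and 15.0 in shNAT10, with an opposite-strand peak of 14.5 and 49.0 there. The second (chr19:15835783-15836111) had 28.9 and 7.18, a log2 ratio of -2.01, and met no other gene's peak. Other RNAs studied in cancer were listed in shNAT10 only: TUG1 with 42.3 (chr22:30978557-30978827), LINC00963 with 34.9 (chr9:129504297-129504476) and MAFG-AS1 with 87.9 (chr17:81930368-81930723). None of these had a peak of another gene. In all, the 5 genes of this list, which includes NORAD, had 1 peak in shNC only, 2 in both and 4 in shNAT10 only. Over all differential peaks these shares were 32.2%, 40.4% and 27.3%. The 2 in both, each lower in shNAT10, were those of UCA1, and the 1 in shNC only was of NORAD. With 7 peaks, this describes these peaks and is not a trait of RNAs studied in cancer. No RNA of the X inactivation centre had a differential peak.

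Among the remaining LINC symbols, LINC00857 (24.2) and LINC01356 (53.2) were listed in shNC only. LINC01356 faced a peak of 73.9 of AL390729.1 on the opposite strand, another noncoding RNA of the set. LINC01578, also called CHASERR and known as a repressor of its neighbour CHD2, had 8.75 in shNC and 10.8 in shNAT10.

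**Figure D4:**
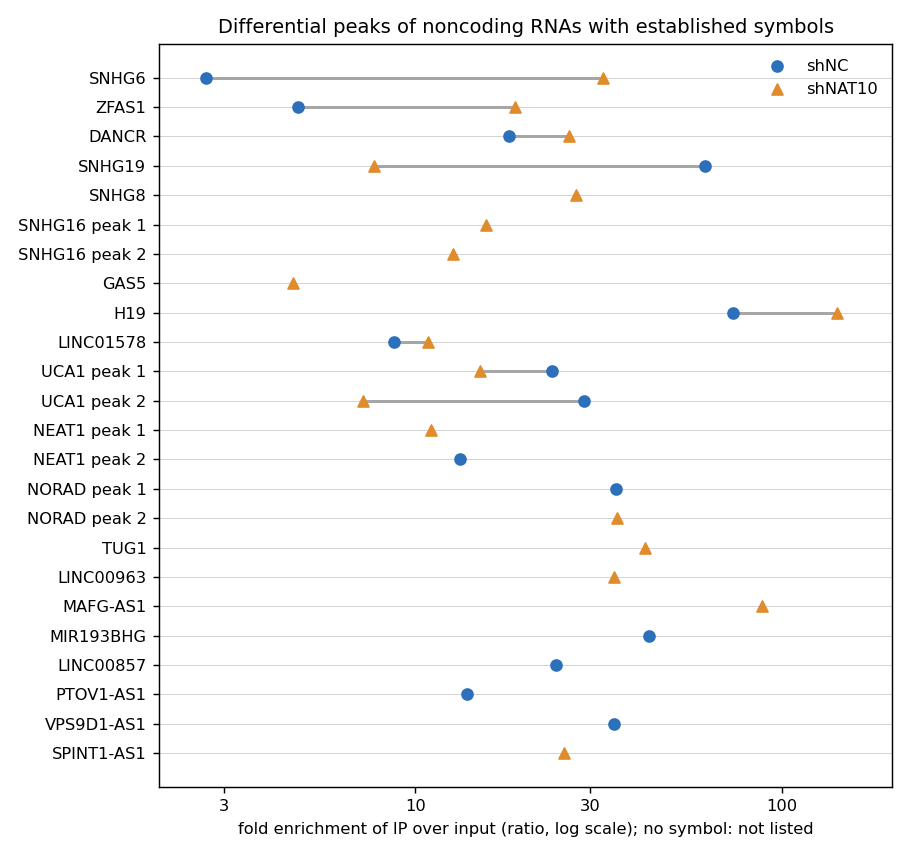
Fold enrichment (IP over input, log scale) at the differential peaks of noncoding RNAs with established symbols, in shNC (circles) and shNAT10 (triangles); no symbol means the peak was not listed in that condition. SNHG6, ZFAS1, DANCR and H19 lie higher in shNAT10, SNHG19 and UCA1 lower, and the 2 peaks of NEAT1 and of NORAD are each listed in a different condition.

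Of the RNAs with a numbered antisense symbol, 11 genes had 12 peaks: 4 in shNC only, 6 in both and 2 in shNAT10 only. Over all differential peaks these shares were 32.2%, 40.4% and 27.3%, and 12 peaks are too few to show a trait of such RNAs. Of these 12, 4 met no peak of another gene: VPS9D1-AS1, PTOV1-AS1, SPINT1-AS1 and MAFG-AS1. VPS9D1-AS1 (chr16:89717838-89718135) had 34.9 in shNC only and 9 motif sites, second to H19. PTOV1-AS1 had 13.8 in shNC only, and SPINT1-AS1 had 25.4 in shNAT10 only. The rest stood at a peak of another gene. ZNF32-AS1 (chr10:43643901-43644903) had 193 in shNC only, the highest value of the set in that list, where ZNF32 had 194. NOP14-AS1 had 32.5 in shNC only, and the peak across it had 16.6 in shNC and 28.7 in shNAT10. RPS6KB2-AS1 had 7.14 in shNC and 46.9 in shNAT10, beside 10.0 and 35.1 on the other strand. LMO7-AS1 had 24.9 and 8.03, beside 28.8 and 10.6.

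ADIRF-AS1, which lies across the adipogenesis factor gene ADIRF, was lower in shNAT10 at both its peaks. The first (chr10:86968467-86968737) had 66.8 in shNC and 4.7 in shNAT10, a log2 ratio of -3.83. The second (chr10:86970174-86970712) had 86.1 in shNC, and in shNAT10 it was listed as 2 peaks, with 12.3 over the stretch that carries the 3 printed motif sites and 41.5 beyond it. The opposite-strand peak of ADIRF had 94.6 and 30.9. ZFHX2-AS1 had 42.0 and 3.89, a log2 ratio of -3.43, beside 39.5 on the opposite strand in shNC.

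Noncoding RNAs across keratin, tubulin and other coding genes give examples of values near those of the gene and of values apart from them. Over all opposite-strand pairs, 53 of 60 were within 1.5-fold in shNC and 31 of 49 in shNAT10. Of the examples, AC011603.2 and AC006064.4 were named after their values were seen. KRT7-AS, antisense to the keratin KRT7, had 98.8 in shNC and 83.2 in shNAT10, where KRT7 had 95.2 and 179, so here the strands were near each other in shNC and apart in shNAT10. AC011603.2 across the tubulin gene TUBA1B had 39.3 and 31.7, against 42.6 and 31.7. AC125611.3 across TUBA1C had 19.5 and 8.48, against 25.0 and 9.41. Its 7 listed motif sites all lay outside the exonic blocks. AC006064.4 across GAPDH had 13.7 and 20.3, against 12.2 and 19.4. AC108002.1 across LY6K had 166 and 61.5, against 166 and 61.7. Over the 84 peaks with an opposite-strand peak, 75 were listed in the same condition or conditions as it. In the 37 where both strands had values in both conditions, the log2 ratio had the same sign in 31. These values come from the same libraries and places, so they are no independent support for either strand.

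Several of the most extreme ratios belonged to RNAs known by clone names. AP003396.1 (chr11:119336457-119337309, minus strand), across RNF26, had 158 in shNC and 4.35 in shNAT10, the lowest log2 ratio at -5.18. Its shNC peak covered 269 exonic nt and its shNAT10 peak only 120, so the ratio sets unlike stretches side by side. Its opposite-strand peak had 122 and 6.07. AC016876.2 had 29.1 and 1.87 at its differential peak, a log2 ratio of -3.96. However, the shNC value belonged to a peak of 1170 exonic nt and the shNAT10 value to one of 181 nt within it, so the ratio sets unlike stretches side by side. The shNAT10 list had a further peak of 33.7 over 810 nt of the same stretch, and peaks of other genes lay there on the same strand. AC073896.4 had 36.1 and 3.77, a log2 ratio of -3.26, and AC027031.2 (chr8:106272397-106272751) had 132 and 16.5, a log2 ratio of -3.00. Neither met a peak of another gene. The sense-intronic AL691482.3, within ELF3, had 16.8 and 1.97.

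At the upper end, AL021707.3 had 2.07 in shNC and 22.8 in shNAT10, a log2 ratio of 3.46, while an opposite-strand peak at the place had 16.6 and 8.73, the other direction. Its shNC peak covered 148 exonic nt and its shNAT10 peak 235. AL021707.5, another noncoding RNA of the set overlapping it on the same strand, had 3.94 and 8.73, a log2 ratio of 1.15. AL589765.7, across MRPL9, had 12.7 and 78.2, and AC027290.1, across VPS37B, had 11.1 and 68.4. Each had a log2 ratio of 2.62, and the opposite-strand peaks had 6.56 and 42.1, and 15.5 and 68.4. AL137127.1, within UBR4, had 9.66 in shNAT10 only.

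Of the other genes with several differential peaks, AC067930.6 had 14.0 and 10.5 at its first peak and 8.28 and 41.4 at its second, with 209 nt between them. Peaks of other genes lay at both places on either strand, with 15.5 in shNC and 11.2 in shNAT10 on the opposite one. AC145207.2 had 15.6 and 7.69 at its first, and 2.25 in shNC only at its second. Across it, ARHGDIA had 14.6 and 7.56 at the first, and 14.6 in shNC at the second. AC026362.1 had 19.7 in shNC only, where the opposite strand also had 19.7, and 18.5 and 10.1 at its second. Both places met a peak of another gene on the same strand. AL022311.1 had 5.11 and 8.92, each in shNAT10 only and each at a peak of another gene on the same strand. AL358781.1, across PRRC2B, had 3 differential peaks: 17.1 and 23.8 at the first, and 20.4 and 20.0 in shNC only at the others, which overlap each other. PRRC2B had 17.1 and 29.8 at the first, and 20.7 in shNC at the others. AC024267.6, whose sequence is printed above, had 12.4 in shNC only, where the opposite strand had 15.4. Over all 136 peaks, the median fold enrichment was 19.9 for the 100 peaks with a value in shNC and 16.5 for the 91 with a value in shNAT10. Over the peaks that met no other gene it was 23.2 for 20 peaks in shNC and 19.4 for 23 in shNAT10.

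Motif sites, length and exon structure, which the choice of genes did not use, were set against protein-coding peaks. At least 1 listed motif site was found in 90 of 136 noncoding peaks (66.2%, 95% Wilson interval 57.9 to 73.6) and in 60.6% of protein-coding ones, a difference of 5.54 points whose interval (-2.96 to 13.2) holds 0. LincRNAs had 47.1% and antisense RNAs 69.7%. The 34 peaks that met no other gene had 55.9%, a difference of -4.75 points from protein-coding peaks (-21.3 to 10.6). Within exonic blocks there were 0.562 sites per 100 nt, against 0.486, and 0.504 in the 34 peaks. The median exonic length was 236 nt (range 118 to 2409), against 241, and 208 in the 34 peaks. Several exonic blocks were present in 44 noncoding peaks (32.4%), against 26.7%, a difference of 5.67 points (-1.81 to 14.1). In the 34 peaks it was 29.4%, a difference of 2.73 points (-9.97 to 19.6). For antisense RNAs it was 38.2%, a difference of 11.5 points (1.23 to 22.8).

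By position, 113 of the 136 peaks overlapped the span, introns included, of another RefSeq protein-coding gene on either strand. The same share over protein-coding peaks was not computed. The antisense and overlapping biotypes are defined by their place at another gene, so nothing is read from this count. Chromosome 19 held 20 peaks (14.7%, against 11.2% of protein-coding peaks) and chromosome 17 held 19 (14.0%, against 8.32%). The region label in the table was exon for 126 peaks (92.6%, against 19.8% of protein-coding peaks). The other 10 carried a label of a coding transcript, 7 as 3′ untranslated and 3 as coding. A noncoding transcript has no coding or untranslated region of its own. The difference in the exon label therefore follows from the choice of genes and is no finding about them.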

How the data were processed

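acRIP-seq was done on shNC and shNAT10 FaDu cells, with 1 IP and 1 input library per condition (4 libraries). RNA was fragmented, pulled down with an anti-ac4C antibody and sequenced in pairs. The submitters' processing notes name cutadapt 2.5, HISAT2 2.1.0, featureCounts 1.6.3 and HOMER 4.10.4, and the build GRCh38. The peak caller and its thresholds are not given in the sources used here. The deposited peak lists give each peak's blocks, its fold enrichment (a ratio of IP over input), a p-value (named score there) and the log10 of the FDR. The authors' table of differential peaks also holds a log2 fold change, p-value and FDR between conditions, and these were not used. Only its peak positions, biotypes, region labels and motif sites were. No read counts, and so no depth, were used.

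In Python 3.11.15 (pandas 2.3.3, numpy 2.4.6, matplotlib 3.10.9), a differential peak was called listed in a condition where it shared at least 1 exonic base with a peak on the same strand, whatever its gene. Every noncoding peak so listed had a peak of the same gene there. Fold enrichments were taken from peaks of the same gene only, and where several overlapped, the best overlap gave the value. Over all differential peaks, 1135 were listed in both conditions and 1126 had values in both. Shares have 95% Wilson intervals and their differences Newcombe intervals. With 1 library of each kind per condition, no test between conditions was possible. The overlap step was tested on simulated peaks. Genes were named by their symbol in the differential table, and 30 of 125 matched RefSeq GRCh38.p14 under a current or former symbol. Of the 35 peaks in these, 34 lay on that RefSeq gene. Genes named are the 5 highest in each list, the 5 highest and 5 lowest ratios, genes with 2 or more differential peaks, those on the lists of roles, the 3 peaks with most motif sites, and members of the smallest biotypes. AC024267.6, AC011603.2 and AC006064.4, and AL390729.1 and AL021707.5 as partners, were named outside this rule after their values were seen. The genes and lists were chosen with earlier results of these data known. Alternatives tried were another overlap, fold, FDR and biotype choice, and leaving out peaks at other genes.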

Additional observations from a re-analysis of the deposited data

How the results depend on the processing

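Of 59 alternative values, 38 kept within 1.5 times the count or within the stated spread, 19 moved and 2 changed sign. Without peaks that overlapped a differential peak of another gene, 20 peaks were in shNC only, 20 in both and 18 in shNAT10 only, 11 ratios were above and 9 below 0, and the median log2 ratio changed sign to 0.38. Without peaks at any peak of another gene on either strand, an alternative chosen after seeing the data, these values were 11, 9, 14, 5, 4 and 0.30, the share with a motif site was 55.9%, and over the 30 genes with no differential peak at another gene, 8 were in shNC only, 14 in both and 8 in shNAT10 only. These settings hold fewer peaks by construction, while the cause of the sign change was not tested. With the gene identifier in place of overlap, 23 were in shNAT10 only. With lincRNA and antisense RNA alone, 33 peaks and 42 genes were in both. With a peak FDR of at most 1e-10, 43 genes were in both. At least 2 motif sites were in 44.1% of peaks. No paired analysis was possible because only 1 library of each kind was made per condition. Read depth, and so which enrichments could differ by counting error alone, is unknown.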
